A study of Homo sapiens with 5 samples.

Results

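The transcription factor genes SIX6, SOX21, SOX3, OTX2, POU3F1 and PAX6, which act in early neuroectoderm, were followed across 5 arrays of H1, an established line of human embryonic stem cells. They were chosen by gene symbol in the platform annotation, which gave 11 probes of 47296 on the array and 6 genes of 20041 with a named probe. SOX2 was not among them. Of these 6 genes, 5 were detected on at least 1 array, through 7 of the 11 probes, and PAX6 was detected on none. All cultures grew in E8, a chemically defined medium for pluripotent cells, on plates coated with Matrigel. At day 2 there were 4 conditions, namely the plain medium, the medium with pyruvate at 16 mM, the medium with BMP4, and the medium with both agents. The fifth array held cells kept with both agents until day 6. The labels give no dose of BMP4, and no culture of that age without either agent was analysed here. RNA was read on Illumina expression BeadChips. Each condition had 1 array, so the spread between cultures is unknown and a difference between a pair of arrays carries no test. By its title, the study concerns exogenous pyruvate and the mesodermal fate of these cells.

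Neuroectoderm is the embryonic layer that forms brain, spinal cord and eye. In vertebrate embryos, signalling by BMP ligands steers ectoderm away from the neural fate, and secreted BMP inhibitors allow it. Several factors of this layer, SOX3 and OTX2 among them, are already transcribed in cultured pluripotent cells before any differentiation. SIX6 is a homeodomain factor of the eye field, retina and pituitary, OTX2 specifies forebrain and midbrain, and PAX6 governs eye and forebrain development. SOX3 belongs to the SOXB1 group that maintains neural progenitors, whereas SOX21 belongs to the SOXB2 group, which counteracts SOXB1 factors in chick neural tube. POU3F1, also called OCT6, promotes the neural fate of epiblast cells in mouse.

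The promoters of SIX6, SOX21 and SOX3 are shown because these 3 members went from high levels in E8 to undetected at day 6, and because each has a single start in the RefSeq table. The sequences are the 250 bases before the annotated start in RefSeq, GRCh38.p14, read 5′ to 3′ on the strand of the gene. They lie at chr14:60508896-60509145 on the plus strand for SIX6, chr13:94712546-94712795 on the minus strand for SOX21 and chrX:140505070-140505319 on the minus strand for SOX3. Capitals mark matches, on either strand, to 6 motifs, which were the SMAD palindrome GTCTAGAC, the GC element of BMP-responsive SMADs GGCGCC, the octamer ATGCAAAT bound by POU factors, the SOX core ACAAT, the TCF/LEF core CTTTGA and the CCAAT box.
SIX6: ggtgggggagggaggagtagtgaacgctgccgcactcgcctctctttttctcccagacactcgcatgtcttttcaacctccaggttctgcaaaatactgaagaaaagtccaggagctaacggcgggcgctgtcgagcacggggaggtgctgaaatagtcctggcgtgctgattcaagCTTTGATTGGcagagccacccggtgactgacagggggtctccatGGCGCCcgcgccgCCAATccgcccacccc
SOX21: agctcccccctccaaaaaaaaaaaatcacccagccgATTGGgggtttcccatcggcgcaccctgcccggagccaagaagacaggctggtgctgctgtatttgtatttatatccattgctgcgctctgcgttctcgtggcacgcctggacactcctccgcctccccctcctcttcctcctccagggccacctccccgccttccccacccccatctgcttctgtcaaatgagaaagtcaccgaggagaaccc
SOX3: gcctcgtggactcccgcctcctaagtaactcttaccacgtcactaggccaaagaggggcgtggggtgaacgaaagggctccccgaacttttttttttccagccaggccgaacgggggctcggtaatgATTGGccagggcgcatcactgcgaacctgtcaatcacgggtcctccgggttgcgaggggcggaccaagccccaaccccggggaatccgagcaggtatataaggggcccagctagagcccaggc
The SIX6 window held 4 matches. These were 1 GGCGCC, 1 CTTTGA and 2 CCAAT boxes, and the last base of CTTTGA is also the first base of a CCAAT box on the other strand. The windows of SOX21 and SOX3 held 1 match each, a CCAAT box on the other strand. Among 27305 genes with a promoter in the table, 33% held a CCAAT box, 16.1% GGCGCC, 11.4% CTTTGA, 25.2% ACAAT, 1.66% the octamer and 0.176% the palindrome in the same window. A match describes letters only, and these arrays did not measure binding.

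Levels below are log2 of the background-corrected and quantile-normalized signal, which has no unit of its own, and they compare 1 gene between arrays and not 1 gene with another. A probe counted as detected at a detection p-value under 0.01. The lowest detected probe of any gene lay between 5.51 and 5.91 on the 5 arrays, so values under that range are background. Where a gene had several probes, the one with the highest mean over the arrays was used and the others are given beside it. A gene is called higher or lower at a log2 difference of 1 or more in size, which is 2-fold, provided that the array with more signal detected its probe. Such calls rest on size alone. If no probe of the gene was detected on the dimmer array, the ratio is a bound and is written as at least N-fold. In these bulk cultures, fewer cells of a type and less RNA per cell cannot be told apart.

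The arrays detected between 35.2% and 40.1% of probes. One array of day 2, that with both agents, was unlike its 3 companions. Among 9728 genes seen on all 4, 430 were at least 0.5 higher there and 594 at least 0.5 lower, counting genes for which the companions spanned under 0.5. Each companion had 36 to 84 such genes in a given direction. In E8, the pluripotency factors POU5F1, NANOG and SOX2 stood at 12.39, 10.76 and 12.64. SOX1, an early marker of neuroectoderm, was not detected on any of the 5 arrays (4.38 to 4.50), and neither was PAX6. Of the 6 factors, 5 were thus detected in cultures where SOX1 and PAX6 were not.

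SIX6 took a high level without BMP4 and a low one with it. The values were 10.78 in E8, 10.95 with pyruvate, 7.66 with BMP4 and 7.80 with BMP4 plus pyruvate. At day 6 the probe was undetected, at 4.80 with a detection p-value of 0.353. As deposited, before any correction, the intensities in the same order were 2128.4, 1981.8, 272.4, 397.6 and 150.8. The pair without BMP4 and the pair with it at day 2 lay apart, while pyruvate moved neither pair by more than 0.17.

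SOX21 was lower on each array in turn. It stood at 11.12 in E8, 10.55 with pyruvate, 8.57 with BMP4 and 6.29 with BMP4 plus pyruvate, and was undetected at 4.83 at day 6. The step from the BMP4 array to the array with both was larger than that from E8 to pyruvate, and the last day 2 value lay only just above the detection range. SOX3, its relative of the SOXB1 group, kept more of its signal at day 2. It stood at 10.66 in E8, 9.51 with pyruvate, 9.28 with BMP4 and 8.90 with both, and at 5.47 at day 6. That last value had a detection p-value of 0.0286, so SOX3 was undetected at the threshold used and detected at 0.05.

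OTX2 differed from the other members in its course after day 2. It stood at 9.08 in E8, 8.14 with pyruvate, 7.45 with BMP4, 6.68 with BMP4 plus pyruvate and 9.40 with BMP4 plus pyruvate at day 6. The day 6 value was the highest of the 5. A second probe of the same transcript followed the same course, with 7.58, 6.59, 5.86, 5.75 and 7.83 in that order, the BMP4 value being just undetected (detection p-value 0.0104). The third OTX2 probe, assigned to transcript NM_021728, was undetected on all 5 arrays, between 4.45 and 4.65.

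POU3F1 was undetected with BMP4 alone and at day 6. Its values were 6.75 in E8, 7.35 with pyruvate, 5.09 with BMP4 (undetected), 6.21 with BMP4 plus pyruvate and 4.64 at day 6 (undetected). The second probe gave 6.92, 7.06, 4.89, 6.56 and 4.46, with the same 2 arrays undetected. Both probes therefore placed BMP4 plus pyruvate at day 2 above BMP4 alone and below pyruvate alone. The 3 PAX6 probes ranged from 4.62 to 5.63 over the 5 arrays. On both day 2 arrays with BMP4, 2 of these 3 probes had detection p-values between 0.0156 and 0.0442, above the threshold of 0.01 but under 0.05. On the other arrays the lowest of the 3 was 0.116, and no difference of PAX6 is read from such values.

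**Figure D1:**
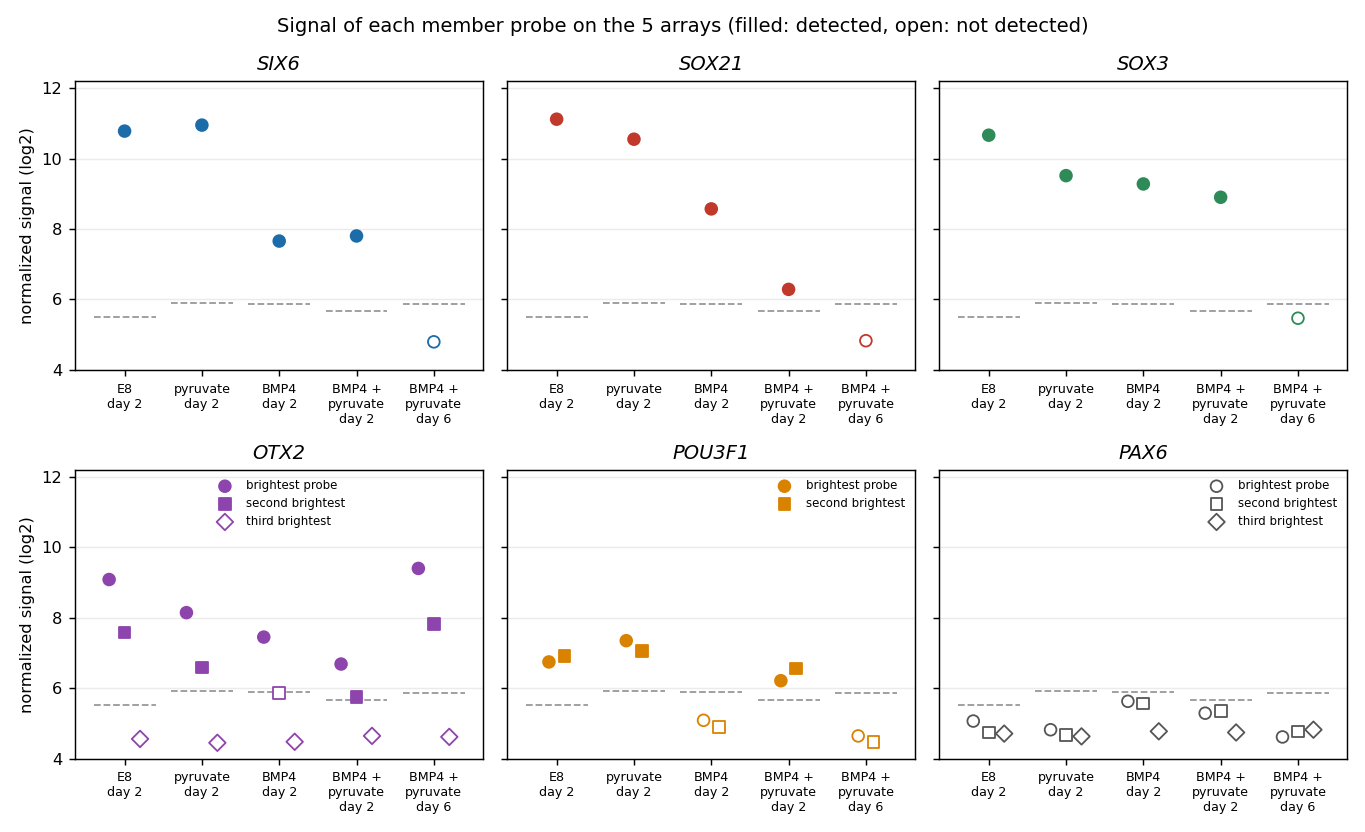
Normalized log2 signal (vertical axis) of every probe of the 6 genes on the 5 arrays (horizontal axis, 1 array per condition). Filled marks are detected at a p-value under 0.01, open marks are not, and grey dashes give the lowest signal of any detected probe on that array. SIX6, SOX21 and SOX3 are open at day 6, at 4.80, 4.83 and 5.47, while the brightest OTX2 probe returns to 9.40.

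All 5 detected members were lower on the BMP4 array than on the E8 array of day 2. SIX6 was 8.70-fold lower, SOX21 5.84-fold, OTX2 3.10-fold and SOX3 2.61-fold, and POU3F1 was at least 1.82-fold lower. The POU3F1 call counts its signal below detection, and without background correction its difference was -0.57 and 4 members were lower. No member was higher and PAX6 was undetected on both arrays. Over the whole array, 2.52% of 11559 genes detected on either array were lower by the same rule and 2.68% were higher. Since the 5 detected members were all present in E8, they could count as lower, whereas PAX6 could not. Among the 10157 genes detected on both arrays, the difference of SIX6 (-3.12 in log2) was the lowest of all, that of SOX21 (-2.55) ranked 6 from the lowest, OTX2 (-1.63) 22 and SOX3 (-1.38) 47. The median difference of the 5 was -1.66, or -1.63 with POU3F1 at its bound, against -0.01 over all genes tested.

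The same question can be asked of the pair of arrays with pyruvate in both media, of which the one with BMP4 is the array unlike its companions. That array's part in these differences was not tested. SOX21 was 19.2-fold lower, SIX6 8.85-fold, OTX2 2.75-fold and POU3F1 2.2-fold, and SOX3 differed by -0.61 in log2, short of the rule. Here 5.77% of 11282 genes were lower and 6.46% higher. SOX21 (-4.26) had the lowest difference of 10023 genes detected on both arrays and SIX6 (-3.15) ranked 3 from the lowest. The median of the 5 was -1.46, against -0.04 over all genes. SIX6, SOX21, OTX2 and POU3F1, 4 of the 6 members, were lower in both pairs, as were 133 of 11978 genes, or 1.11%. The POU3F1 call of this pair is the least firm, since its second probe differed by -0.51, and it was under 2-fold in 4 of 6 alternative settings. OTX2 by its second probe differed by -0.84, and it was under 2-fold in 2 of the 6. The size of the SOX21 difference depends on a value near background, 6.29 with both agents. It ranged from -4.40 to -2.99 over the 6 settings.

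**Figure D2:**
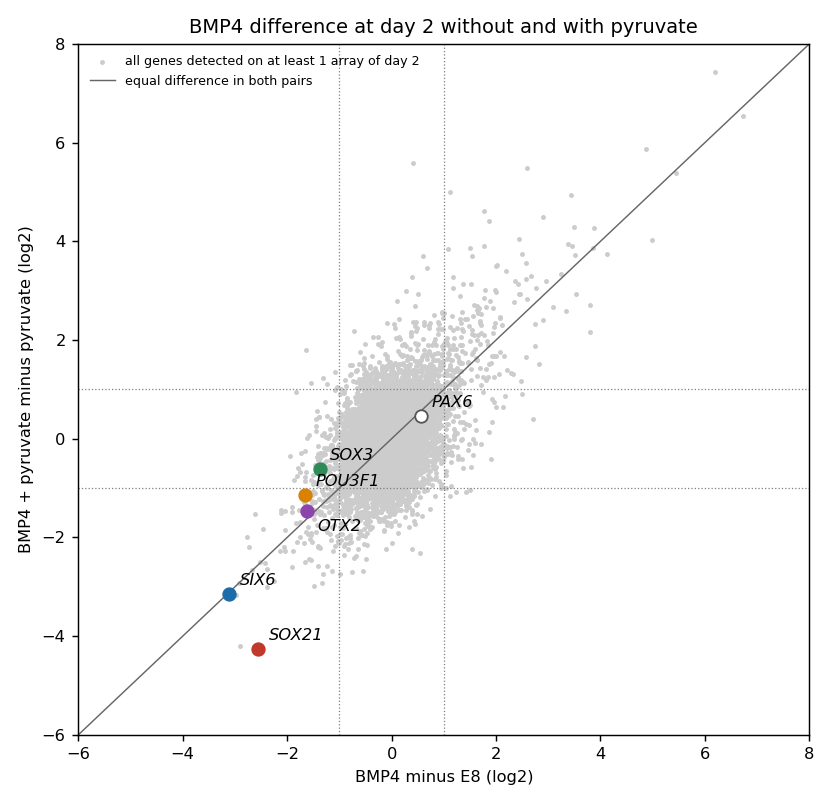
Log2 difference of BMP4 minus E8 (horizontal axis) against BMP4 plus pyruvate minus pyruvate (vertical axis) for 11978 genes detected at day 2 (grey) and the 6 members (coloured, PAX6 open because undetected). The solid line marks equal differences and dotted lines a difference of 1. SIX6 lies on the line at -3.12 and -3.15, and SOX21 lies under it at -2.55 and -4.26.

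An additive model of BMP4 and pyruvate was fitted with limma to the 4 arrays of day 2, on the same 11978 genes. Its only residual is the departure from additivity, so its errors and p-values measure no spread between cultures, and limma draws each gene's error largely from the other genes. One of the 2 pairs behind each estimate holds the array unlike its companions. By this fit, SOX21 fell by 3.40 with BMP4 (SE 0.27, limma adjusted p = 1.56e-32) and SIX6 fell by 3.13 (SE 0.27, limma adjusted p = 3.37e-28), each lower in 2 of 2 pairs. OTX2 fell by 1.55 (SE 0.30, limma adjusted p = 1.17e-05), POU3F1 by 1.40 (SE 0.36, adjusted p = 0.00385) and SOX3 by 1.0 (SE 0.26, adjusted p = 0.00462). OTX2 and POU3F1 were also lower in 2 of 2 pairs. SOX3 was lower without pyruvate, but with it the difference was -0.61, short of the rule of size. Taken from each gene's own 4 arrays, the SE would be larger for SOX21, at 0.86, and for SOX3, at 0.39. It would be smaller for SIX6 (0.01), OTX2 (0.09) and POU3F1 (0.26), by the brightest probes. These p-values thus rest on the error taken from other genes. All 5 detected members passed, where 2.75% of genes fell with BMP4 and 3.36% rose. With pyruvate left out of the model, 2 of the 5 passed, SIX6 (limma adjusted p = 0.000242) and SOX21 (adjusted p = 0.028). With the mean of all probes, OTX2 did not pass (limma adjusted p = 0.0661). With pyruvate left out, OTX2, POU3F1 and SOX3 had limma adjusted p-values of 0.0997, 0.202 and 0.283. The estimate for POU3F1 rests partly on background, because the gene was undetected with BMP4 alone.

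With pyruvate alone the members differed less from E8, and not in 1 direction. SOX3 was 2.22-fold lower and was the only member to pass the rule of size, where 1.32% of 11475 genes were lower and 1.05% higher. Its difference (-1.15 in log2) ranked 33 from the lowest of 10257 genes detected on both arrays. OTX2 followed at -0.94, with -0.99 by its second probe, and SOX21 at -0.57, while SIX6 (0.17) and POU3F1 (0.60, and 0.14 by its second probe) lay slightly higher. The median of the 5 was -0.57, against 0.00 over all genes.

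Added to BMP4, pyruvate went with a SOX21 level 4.87-fold lower (-2.28 in log2), the third lowest difference of 10091 genes detected on both arrays. POU3F1 was at least 1.26-fold higher than with BMP4 alone. Its log2 difference was 1.12, with 1.66 by its second probe, but it was under 1 in 4 of 6 alternative settings. SIX6 (0.14), SOX3 (-0.38) and OTX2 (-0.76) passed in neither direction. Of 11198 genes, 3.06% were lower and 3.72% higher. These values rest on the array that stood apart, and no repeat of it was analysed here. That array's part in the SOX21 difference was not tested. The same array showed SOX2, a partner of POU5F1 in pluripotent cells, 4.14-fold lower than with BMP4 alone, while POU5F1 (0.30) and NANOG (-0.12) passed in neither direction.

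In the additive fit, SOX21 was the 1 member under the threshold for pyruvate, with an estimate of -1.43 (SE 0.27, limma adjusted p = 9.78e-05). Its difference was negative in 2 of 2 pairs but unequal, -0.57 without BMP4, short of the rule of size, and -2.28 with it. The departure of SOX21's own 4 arrays from additivity gives an SE of 0.86 in place of 0.27, so this call rests on the error taken from other genes. Of all genes, 0.409% fell with pyruvate and 0.459% rose. With the mean of all probes or without BMP4 in the model SOX21 did not pass (limma adjusted p = 0.0838 and 1). SOX21 has 1 probe, so the mean of all probes left its own values and estimate unchanged. Its adjusted p-value differed there only through the other genes. The remaining members had estimates of -0.85 (OTX2), -0.76 (SOX3), 0.86 (POU3F1) and 0.16 (SIX6), with limma adjusted p-values of 0.227, 0.222, 0.483 and 1.

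The departure from additivity, which is the BMP4 difference with pyruvate minus that without it, was -0.03 for SIX6, 0.77 for SOX3 and -1.72 for SOX21, each with 1 probe detected on all 4 arrays. SIX6 thus differed with BMP4 by nearly the same amount in both media. For OTX2 the departure was 0.17 by the brightest probe and 0.88 by the second. For POU3F1 it was 0.52 and 1.52, and both values rest on a BMP4 array where neither probe was detected, so its size is not settled. By the brightest probes SOX21 alone reached a departure of 1 in size, and with the mean of all probes POU3F1 did too, at 1.02. A departure of 1 or more occurred in 1286 of 11978 genes, or 10.7%. For SOX3 the sign was opposite to SOX21, since its pyruvate difference was -1.15 in E8 and -0.38 in BMP4.

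**Figure D3:**
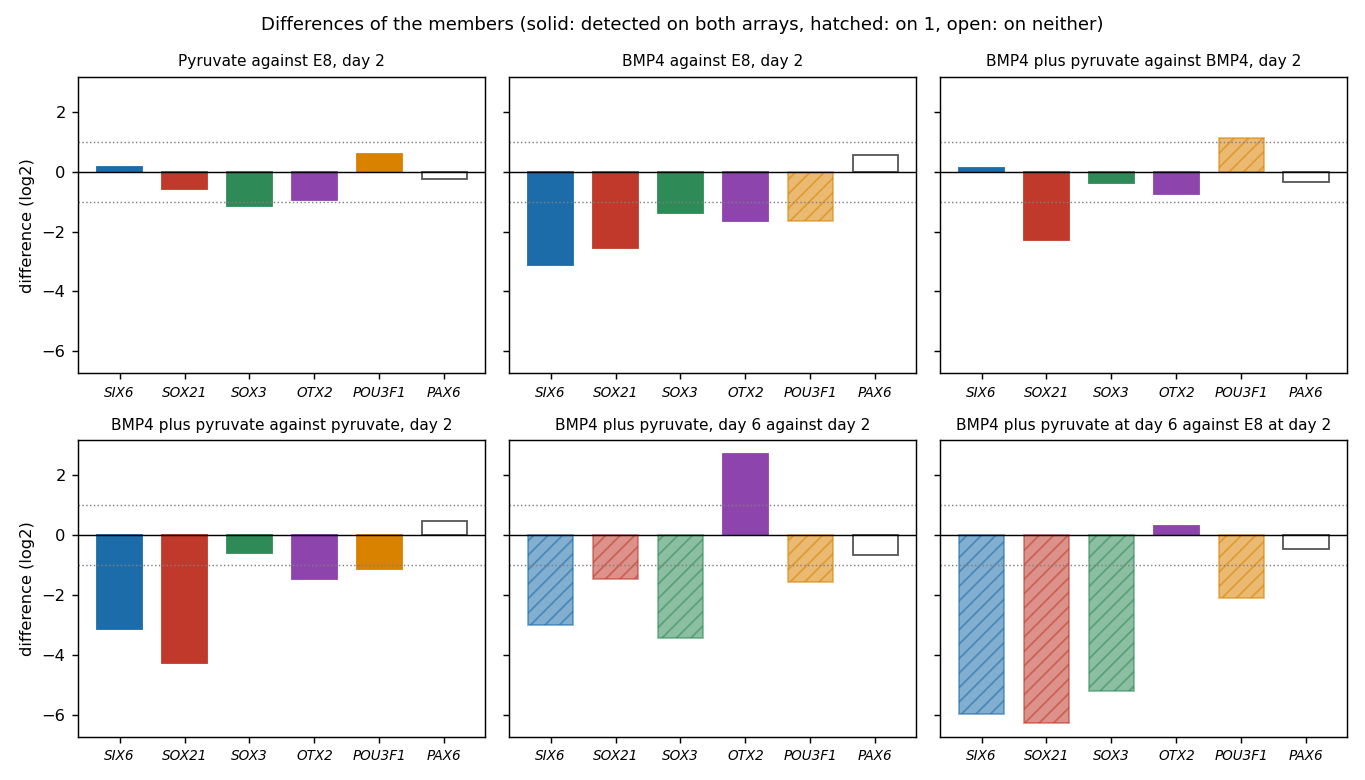
Log2 difference (vertical axis) of each of the 6 members (horizontal axis) in the 6 comparisons, 1 array against 1. Solid bars are genes detected on both arrays, hatched bars on 1 of them and open bars on neither, and dotted lines mark a difference of 1. All detected members are lower with BMP4 against E8, and OTX2 is the only member with a bar above 2, at 2.71 for day 6 against day 2.

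Between day 2 and day 6 of BMP4 plus pyruvate, OTX2 parted from the others. It was 6.56-fold higher at day 6 (2.71 in log2, and 2.08 by its second probe), and its difference ranked 111 from the highest of 9808 genes detected on both arrays. The day 2 side of this comparison is the unrepeated array unlike its companions, where the brightest OTX2 probe had its lowest value, 6.68. SOX3 was at least 8.19-fold lower, SIX6 at least 3.83-fold, SOX21 at least 1.34-fold and POU3F1 at least 1.27-fold. The 4 members that were lower were undetected at day 6, so these ratios are bounds. SOX21 (6.29) and POU3F1 (6.21) already lay near background at day 2. Calls were frequent in this comparison, with 13.5% of 11628 genes higher and 13% lower.

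Against E8 at day 2, the day 6 culture held at least 38.1-fold less SOX21, 30.1-fold less SIX6, 27.8-fold less SOX3 and 1.84-fold less POU3F1. OTX2 differed by 0.31, and by 0.25 with its second probe, so its level was within 1.24-fold of that in E8. Of 11992 genes, 12.3% were lower and 12.5% higher. Treatment and culture time differ together in this comparison and cannot be told apart. On the same array, SOX2 was at least 109-fold lower than in E8, NANOG at least 29.8-fold and POU5F1 27.0-fold.

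Markers of several other lineages were also higher on the day 6 array than at day 2. OTX2 is itself expressed in anterior visceral endoderm of the mouse embryo as well as in neuroectoderm. Of 10 endoderm genes with a probe, 9 were detected on either array of the mixture and 7 of these were higher at day 6 than at day 2, with a median of 1.80. FOXA2 was at least 18.5-fold higher, GATA4 at least 8.5-fold and SOX17 4.65-fold. The number of these 10 genes detected was 2 in E8, 3 with pyruvate, 3 with BMP4, 6 with BMP4 plus pyruvate and 9 at day 6, and their log2 levels summed to between 57.42 and 64.72 at day 2 and 82.9 at day 6. FOXA2 and GATA4 were undetected on all 4 arrays of day 2. Of 19 mesoderm genes with a probe, 13 were detected on either array and all 13 were higher, and the log2 levels of the 19 summed to between 98.74 and 115.17 at day 2 and 160.17 at day 6. Of 19 trophoblast and amnion genes with a probe, 14 were detected on either array. Among these, 10 were higher and 1 was lower at day 6, with a median of 2.4. Over all 11628 genes tested in this pair, 13.5% were higher. The part of these lineages in the OTX2 level was not tested.

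Other neural factors were compared from lists drawn up with earlier results of these data known. Of 13 further anterior neural and eye field factors with a probe, 4 were detected in E8 or with BMP4. HESX1, a forebrain and pituitary factor, was at least 2.07-fold lower with BMP4 and EMX2 was lower (-1.09 in log2), near background. SIX3, the closest relative of SIX6, differed by -0.06, at 9.02 in E8 and 8.97 with BMP4. RAX, LHX5 and OTX1, the paralog of OTX2, were undetected on all 5 arrays. Of 27 neural plate and posterior neural factors, 11 were detected in that pair. OLIG3 (at least 4.38-fold), GBX2 (at least 5.98-fold) and HES3 (at least 1.10-fold) were lower, none was higher and 8 were neither. SOX14, like SOX21 of the SOXB2 group, and POU3F2, POU3F3 and POU3F4, the paralogs of POU3F1, were undetected throughout. In the additive fit 1 of 5 and 3 of 13 genes of these lists fell with BMP4 and 0 rose. Of 18 detected neural progenitor structural and surface genes, 1 was higher with BMP4 than in E8, 2 were lower and 15 were neither. In the fit 3 of 19 such genes fell with BMP4 and 2 rose.

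At day 6 these lists did not move one way. LHX2, a forebrain and eye factor also expressed in mesoderm, was at least 8.38-fold higher than in E8, at 8.58 after being undetected on all 4 arrays of day 2. DLX1 was undetected in E8 and stood at 7.91. SIX3 was 6.2-fold lower at day 6, HESX1 at least 2.09-fold, OLIG3 at least 4.43-fold and GBX2 at least 6.05-fold. MEIS2 (at least 72.2-fold) and IRX3 (118-fold), which act in hindbrain and spinal cord and also in mesoderm, were higher. Of the 6 anterior factors detected on either array, 2 were higher and 2 lower. Of the 14 neural plate and posterior factors, 4 were higher and 6 lower.

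Most targets of BMP signalling were higher with BMP4. Of 13 detected BMP targets, 10 were higher than in E8 and 0 lower, while 3 passed in neither direction. Their median difference was 2.00, or 1.95 with genes undetected on 1 array set at their bound. ID1 was 3.87-fold higher and MSX2 at least 12.4-fold. Of 14 detected genes of non-neural ectoderm, placode and neural crest, 4 were higher, 1 was lower and 9 were neither, and TFAP2A was at least 58.7-fold higher. MSX2 and GATA2, 2 of these 4, also count among the BMP targets. TFAP2A and GATA2 also count among the trophoblast and amnion genes. Of 9 detected genes of that list, 5 were higher with BMP4 than in E8, 2 were lower and 2 neither. Of 10 detected primitive streak genes, 4 were higher, 1 was lower and 5 were neither, and EOMES was at least 55.4-fold higher. Of 26 pluripotency genes, 5 were lower and 1 higher, while 20 passed in neither direction. Their median difference was -0.24. With pyruvate in both media, 10 of the 26 were lower with BMP4 and 2 higher, with a median of -0.67, and 11 of 26 fell and 3 rose with BMP4 in the additive fit.

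The genes nearest in pattern to each member were found by the root mean square distance between log2 values over the 5 arrays, each gene centred on its own mean, among 12413 genes detected on at least 1 array. A smaller distance means a closer course, and genes undetected at day 6 resemble each other there by lying at background. LMO3, a LIM-only transcriptional cofactor, was nearest to both SIX6 (0.46) and SOX21 (0.45). The members SIX6 and SOX21 lay 0.82 apart. SIX6 was followed by LRAT (0.65), an enzyme of vitamin A metabolism, and LHX4 (0.68), a pituitary homeodomain factor. SOX21 was followed by SORBS2 (0.69) and MIR124-2HG (0.71), the host gene of a neuronal microRNA. VASH2, PPM1E and CKMT1B lay nearest to SOX3, at 0.28, 0.33 and 0.33.

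OTX2 had C1orf21, SOX9 and NDNF nearest, all at 0.27. SOX9, a factor of neural crest, cartilage and endoderm derivatives, stood at 7.74 in E8, 7.11 with pyruvate, 6.51 with BMP4, 6.13 with both and 8.68 at day 6. SOX2, NANOG and POU5F1 were among the most distant genes from OTX2, at 3.24, 2.98 and 2.68. They ranked 12409, 12406 and 12395 of 12413 by closeness to OTX2, and 12174, 11840 and 11364 by closeness to POU3F1. Closeness to SOX3 ranked them 542, 143 and 76, at distances of 1.17, 0.83 and 0.71. By closeness to SOX21 they ranked 19, 148 and 455, and by closeness to SIX6 62, 68 and 233. POU3F1 had AK4 (0.17), CXCL16 (0.19) and NLRP7 (0.22) nearest. Distances are smaller for genes of smaller range, so they rank genes for 1 member and do not compare members.

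**Figure D4:**
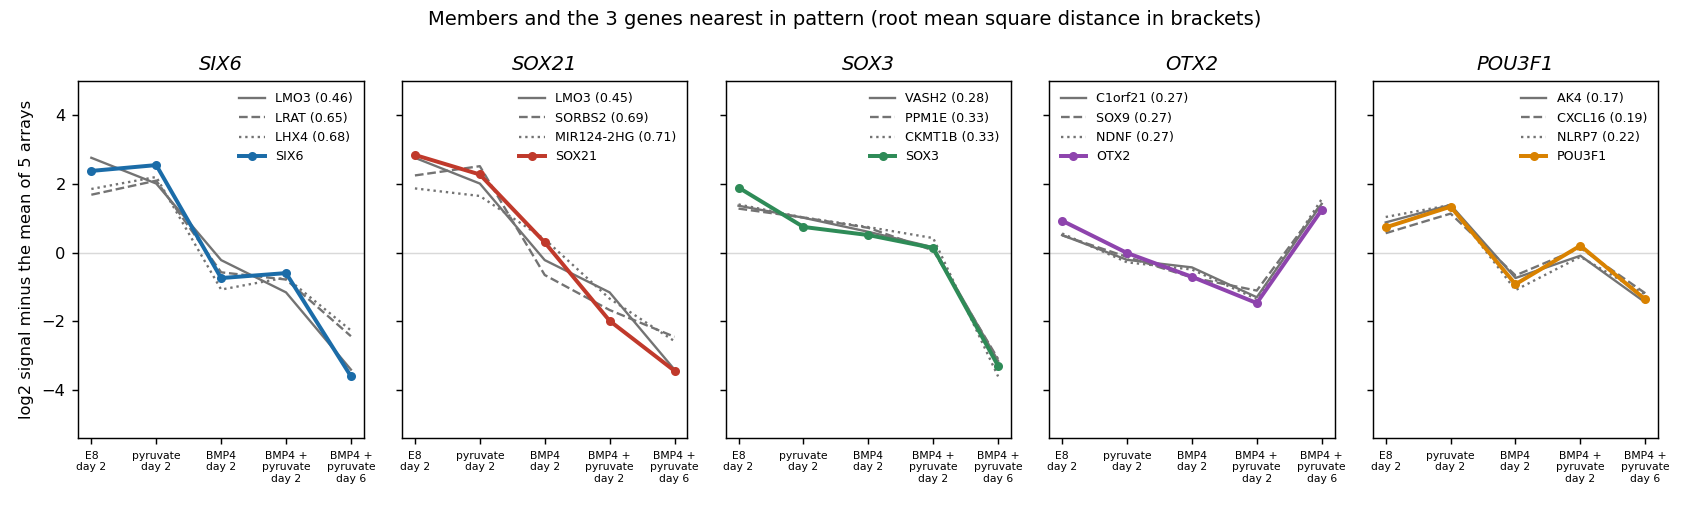
Log2 signal minus the gene's mean over the 5 arrays (vertical axis) on each array (horizontal axis) for 5 members (coloured) and the 3 genes nearest to each (grey), with their distance in brackets. Lines join the values of 1 gene and imply no order of the conditions. OTX2 and its neighbours are highest at day 6, while SIX6, SOX21 and SOX3 are lowest there.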

How the data were processed

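Signals of 47296 probes were measured on 5 Illumina expression BeadChips, 1 per condition, and samples were grouped by the treatment in their labels. Per the file headers, the deposited table holds 1 intensity per probe and array, not normalized, each with a deposited detection p-value. The other deposited table gives log2 values with near-equal medians (5.575 to 5.578), and the sources used here do not state how they were made. It served as an alternative. The sources used here name neither scanner software nor a genome build. All per-sample columns were used.

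Intensities were corrected and normalized with limma 3.58.1 in R 4.3.3 (neqc, normexp from detection p-values, offset 16, quantiles, log2). Quantiles hide changes in total RNA. Of 30105 probes with 1 gene symbol (8 had several, 17183 none), 30066 matched RefSeq by Entrez identifier and 0 symbols were updated. The members and gene lists were chosen with earlier results of these data known. The named genes are all members, their 3 nearest genes by pattern, up to 4 list genes with the largest difference past the size rule, and fixed reference markers. Some are left out. SIX3, RAX, LHX5, OTX1, SOX14 and the POU3F paralogs were named as relatives of members after their values were seen. The additive fit used lmFit and eBayes with a trend, and Benjamini-Hochberg adjustment over 11978 genes at 0.05. It was tested on simulated data with additive effects and independent noise. That test does not cover departures from additivity or an array that stands apart. Promoter motifs were searched by exact match. Alternatives were no background correction, scaling to the 75th percentile, the second table, an offset of 50, a detection threshold of 0.05, the mean of all probes and, for the fit, no trend, 1 term only and other filters. The number of arrays limits the precision.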

Additional observations from a re-analysis of the deposited data

How the results depend on the processing

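Of 113 counts over the members recomputed under alternatives, 100 stayed within 1.5 times of the reported count, 12 were smaller and 1 was larger. Of 329 recomputed values of single members, 305 stayed on the same side of their threshold, 23 dropped under it, 1 passed it and 0 reversed. Reversal was counted only where the reported value or its alternative passed the threshold. A change of sign short of it counted as staying, as for PAX6 with pyruvate against E8 (-0.25, and 0.05 with scaling). All pair differences of PAX6, undetected on every array, counted as staying. The causes were not tested. The calls of SIX6 and SOX3 held under all 6 alternatives in each pair of arrays, and those of SOX21 in each pair except day 6 against day 2 of BMP4 plus pyruvate. SIX6, SOX3 and SOX21 have 1 probe each, so the mean of all probes could not change their differences. The looser detection threshold also left every pair difference of the members as it was. Neither setting could therefore change the calls of these genes, and only the remaining alternatives put them to a test. For BMP4 against E8, SIX6 ranged from -3.12 to -2.52 and SOX21 from -2.55 to -2.21. The OTX2 difference of day 6 against day 2 ranged from 1.59 to 2.77. The number of members lower with BMP4 than in E8, 5 as reported, was 4 without background correction, where POU3F1 differed by -0.57. The number of members higher with BMP4 plus pyruvate than with BMP4, 1 as reported (POU3F1), was 0 without background correction, with scaling, with the authors' log2 values and with an offset of 50. The number lower with BMP4 plus pyruvate than with pyruvate, 4 as reported, was 2 without background correction and with the mean of all probes. The number lower at day 6 than at day 2, 4 as reported, was 2 without background correction and with an offset of 50, where SOX21 and POU3F1 differed by under 1. The members with a departure from additivity of 1 or more, 1 as reported, were 0 without background correction and 2 with the mean of all probes (POU3F1 at 1.02). In the additive fit, the members that fell with BMP4, 5 as reported, were 2 with pyruvate left out. Those that fell with pyruvate, 1 as reported, were 0 with the mean of all probes (SOX21, limma adjusted p = 0.0838) and with BMP4 left out.

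The background shares also depended on the setting. Without background correction, the genes higher and lower were 11 and 12 instead of 120 and 152 for pyruvate against E8, 100 and 48 instead of 310 and 291 for BMP4 against E8, 84 and 61 instead of 417 and 343 for pyruvate added to BMP4, and 256 and 166 instead of 729 and 651 for BMP4 in pyruvate. They were 747 and 619 instead of 1571 and 1511 for day 6 against day 2, and 762 and 621 instead of 1494 and 1475 for day 6 against E8. Scaling moved the share of calls that were higher from 44.1% to 62.8%, from 51.6% to 66.9%, from 54.9% to 33.7% and from 52.8% to 37.1% in the 4 comparisons of day 2, in that order. It moved the median of all genes to -0.14 for pyruvate added to BMP4, -0.18 for BMP4 in pyruvate and 0.11 for day 6 against day 2. No paired analysis was possible because each condition has 1 array and the labels give no replicate numbers. Dim signals limit POU3F1 and PAX6 most, since the offset shrinks differences near background.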
